A study of Mus musculus with 6 samples.

Results

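The genes described here build the presynaptic release apparatus and the first scaffold of a synapse. They are 32 mouse genes in 5 classes. SNARE fusion and calcium sensing holds 9 genes, vesicle membrane and tethering 10, active zone 4, neurexins and neuroligins 5, and postsynaptic scaffolds 4. They were chosen by gene symbol from the annotation of the Affymetrix Mouse 430 2.0 array, by a rule that names no value, though with earlier results of these data known, and are 32 of 18193 genes that the array names by a single symbol. The sample titles name eyes of mouse embryos at embryonic day 15.5. The tissue is given as the posterior eye, with the anterior parts dissected away, which the titles do not say. The Oa1-/- group (3 arrays) lacks Oa1, the older name of Gpr143, a G protein-coupled receptor of pigment cell organelles whose loss causes ocular albinism. The WT group (3 arrays) was the comparison. Each array held RNA from the eyes of 6 embryos of 1 dam, pooled, so a replicate is a litter. The labels name neither the strain nor the embryos' sex, nor how much of Oa1 is deleted.

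At a chemical synapse, synaptic vesicles dock at the active zone, and the SNARE proteins of vesicle and plasma membrane zip together when synaptotagmin binds calcium. Complexin clamps and assists this step, and synapsins and Rab3 proteins hold and deliver the vesicles. Neurexins on the axon bind neuroligins on the target cell, and scaffolds such as PSD-95 and gephyrin gather receptors on the receiving side. In the embryonic retina, ganglion cells are among the earliest neurons to form and send out axons well before the plexiform layers hold mature synapses.

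Values are MAS5 signals, a linear array brightness that the authors' processing had scaled to a common level on every array, and each gene is read from its brightest probe set unless another is named. Median signals still differed, from 93.6 on Oa1-/- replicate 1 to 129 on Oa1-/- replicate 3. Gpr143 had signals of 28.3, 39.1 and 6.02 on the Oa1-/- arrays and 250, 257 and 246 on the WT arrays, so the labelled genotypes could be told apart. Some markers of the posterior eye were bright. Isl1, of ganglion cells, lay between 5474 and 6050 over the 6 arrays, and Pmel, of pigment cells, between 7795 and 10794. Pax6, which the optic cup shares with the lens, lay between 10026 and 11541. Other markers were dim. The ganglion cell genes Pou4f3 and Nefh peaked at 66.8 and 88.3, and Rpe65, of the mature pigment epithelium, stayed at or below 11.7. Lens crystallins were brighter than Isl1, Pax6 and Pmel, with Cryba1 between 24064 and 28792 and Crygd between 19948 and 27972 over the 6 arrays. The highest signal of any non-control probe set ran from 25103 to 30680 over the arrays. Lens RNA was thus abundant in every pool, although the anterior parts are said to be removed. Oa1-/- replicate 1 lay farthest out on the first principal component of all tested probe sets (46.0% of the variance), and WT replicate 3 farthest out on the second (18.7%). The Y-linked Eif2s3y had signals of 406, 805 and 685 on the Oa1-/- arrays and 679, 427 and 9.26 on the WT arrays. The Y-linked Kdm5d and Uty were at 13.5 and 14.4 on WT replicate 3, with lowest values elsewhere of 377 and 189. WT replicate 3 thus differed from the other pools in these Y-linked transcripts. Of the 32 genes, Syn1, Syp and Nlgn3 lie on the X chromosome, and the part of this difference in their values was not tested. WT replicate 1, described after the vesicle genes, was low for many of the 32 genes.

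None of the 32 genes passed the test for a difference between genotypes. At an adjusted p below 0.05 (limma, Benjamini-Hochberg over 27029 probe sets) 0 probe sets of the whole array were called (0%), Gpr143 included, and the smallest adjusted p among the 32 genes was 0.985. At an unadjusted p below 0.05, 1 of the 32 genes was reached (3.125%), Cplx1 with a higher signal in Oa1-/-, against a background of 3.66% of the 12885 genes tested, 1.68% higher and 1.98% lower. The log2 change, Oa1-/- minus WT on the log2(signal + 16) scale, was positive for 22 genes and negative for 10, with a median of 0.06. Of all genes tested, 50.8% had a positive change and the median was 0.00265. The Oa1-/- and WT arrays did not overlap for 4 of the 32 genes (12.5%), against 10.8% of all genes: Syt1, Rab3b and Syngr3 lay higher in Oa1-/- (background 5.47%) and Syn2 lower (background 5.29%). The counts of called and of separated genes were thus near their backgrounds. The split of signs was further from its background, and it moved with single arrays, as described after the vesicle genes.

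The precision of these values sets what could be seen. Standard errors of the log2 changes ran from 0.10 to 0.31, and the 95% interval included 0 for 31 of the 32 genes. For 20 of the 32, the whole interval lay within a 1.5-fold change either way, and the remaining 12 allowed larger ones. In whole tissue, fewer cells of a type and less RNA per cell cannot be told apart.

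**Figure D1:**
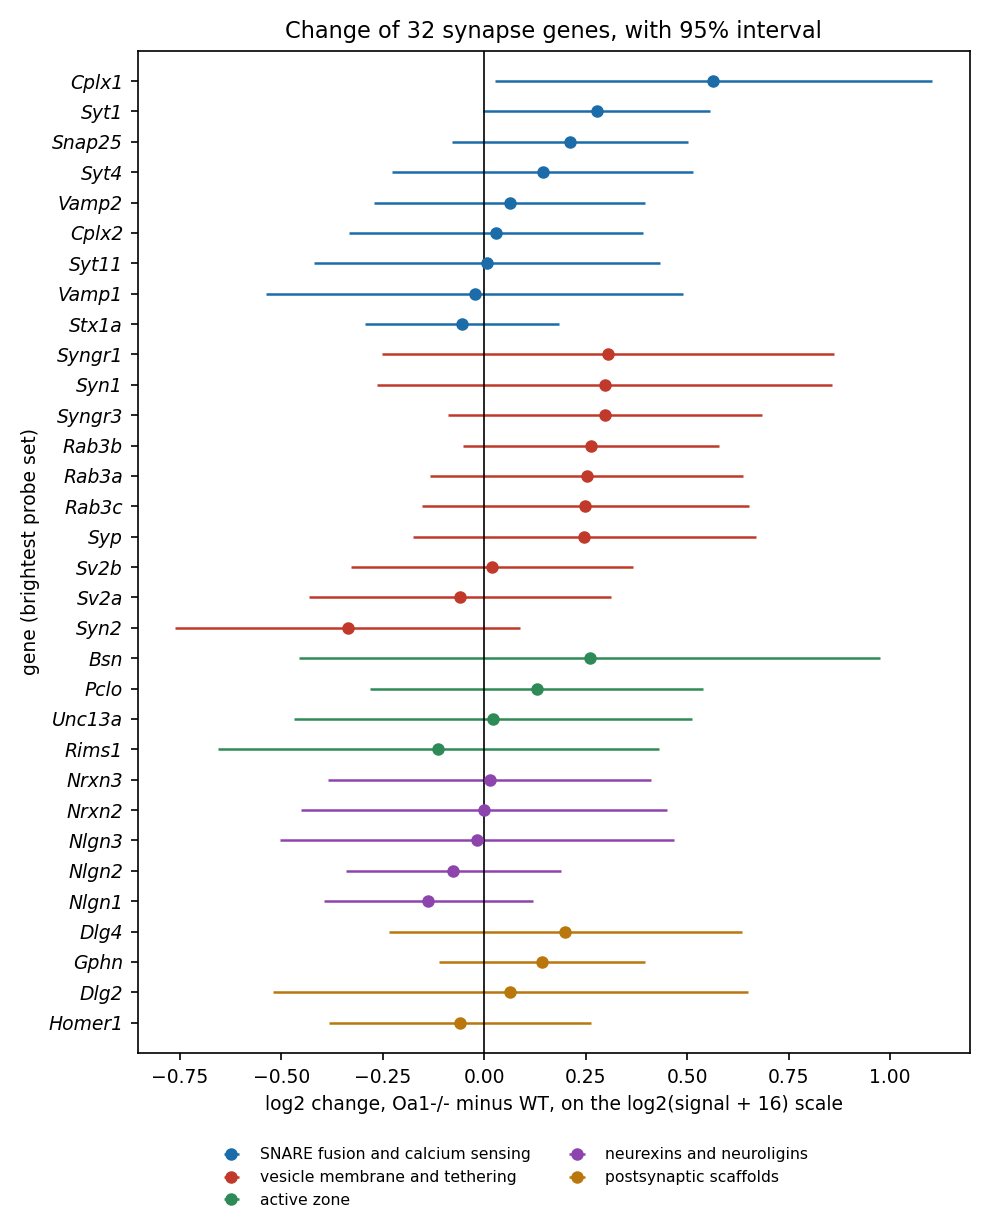
Log2 change of each of the 32 genes on its brightest probe set, Oa1-/- minus WT on the log2(signal + 16) scale (horizontal axis), with its 95% interval from limma, genes grouped and coloured by class (vertical axis). Only the interval of Cplx1, at 0.56, lies clear of 0, and changes run from −0.34 for Syn2 to that value.

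Promoter windows are printed for 3 genes, Syn1 for the rarest of the motifs searched and Cplx1 and Syt1 for the E-box beside the 2 lowest p-values of the 32 genes. Windows of 250 bases before each annotated start came from RefSeq (GRCm38.p6), with 40 windows for 26 of the 32 genes. Where a gene had several, the first by coordinate with a match is printed. Syn1, at chrX:20920919-20921168 on the minus strand, holds TTCAGCACC, the left part of the element bound by REST, a repressor of neuronal genes outside neurons, and TGACGTCA, the cyclic AMP response element. Cplx1, at chr5:108550028-108550277 on the minus strand, and Syt1, at chr10:109009112-109009361 on the minus strand, hold the E-box CAGCTG, and the Cplx1 window also holds the GC box CCGCCC. Capitals mark these matches, and each sequence runs 5′ to 3′ toward the start.
Syn1: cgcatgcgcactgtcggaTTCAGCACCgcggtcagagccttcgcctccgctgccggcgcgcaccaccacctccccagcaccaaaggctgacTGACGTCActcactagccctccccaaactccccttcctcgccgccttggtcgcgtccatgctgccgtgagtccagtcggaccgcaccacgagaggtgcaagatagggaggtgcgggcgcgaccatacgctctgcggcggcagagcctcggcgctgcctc
Cplx1: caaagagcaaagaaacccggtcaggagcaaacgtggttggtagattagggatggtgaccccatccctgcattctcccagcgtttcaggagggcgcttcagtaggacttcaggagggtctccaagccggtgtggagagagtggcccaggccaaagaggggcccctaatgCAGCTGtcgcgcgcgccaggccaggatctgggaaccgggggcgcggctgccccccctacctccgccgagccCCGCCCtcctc
Syt1: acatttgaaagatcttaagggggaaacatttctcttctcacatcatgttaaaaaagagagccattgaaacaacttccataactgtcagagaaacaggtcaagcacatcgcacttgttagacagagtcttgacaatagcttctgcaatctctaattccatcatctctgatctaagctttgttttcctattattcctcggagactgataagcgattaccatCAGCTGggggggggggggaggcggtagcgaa

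Both strands were searched, and no match of one motif overlapped a match of another. A gene was counted if any of its windows held the motif, so genes with more annotated starts had more chances to match. Numbers of windows per gene were not compared between the members and all tested genes. The E-box CAGCTG was present in 9 of the 26 genes with a window (34.6%), against 14.7% of the 10397 tested genes with one. The 9 genes were Cplx1, Cplx2, Stx1a, Syt1, Rab3a, Rab3c, Sv2a, Nlgn2 and Homer1, and their log2 changes lay on both sides of 0. TTCAGCACC was found in 2 genes, Syn1 and Nlgn1 (7.69% against 0.375%), and TGACGTCA in Syn1 alone (3.85% against 3.01%). The GC box CCGCCC was in 18 genes (69.2% against 63.8%) and the TATA box TATAAA in 3 (11.5% against 8.08%). For Syt1 the GC box match lies in another window than the printed one, and that window holds no E-box. A match is a description of the letters, and the members were not tested against other genes on this count.

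Of the 9 genes in the SNARE fusion and calcium sensing class, 7 had a higher mean log2 signal in Oa1-/- and 2 a lower one. The median log2 change of the class was 0.06. Cplx1 encodes complexin 1, which binds the assembled SNARE complex. Its signals were 1038, 1876 and 1896 on the Oa1-/- arrays and 1185, 1124 and 845 on the WT arrays. Oa1-/- replicates 2 and 3 stood above every WT array, and Oa1-/- replicate 1 fell among the WT arrays. The means were 1604 ± 490 in Oa1-/- and 1051 ± 181 in WT (SD, n = 3 each), a log2 change of 0.56 (SE 0.24, 95% interval 0.03 to 1.10, unadjusted p = 0.0418 and adjusted p = 0.985 in limma). The change was 0.85 without Oa1-/- replicate 1 and 0.66 without WT replicate 1. It was 0.43 without Oa1-/- replicate 2, 0.42 without Oa1-/- replicate 3, 0.62 without WT replicate 2 and 0.42 without WT replicate 3, each with an unadjusted p above 0.05 in limma. The 2 other probe sets of Cplx1 had changes of 0.15 and 0.36.

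Syt1 encodes synaptotagmin 1, the fast calcium sensor of release. Its signals were 2992, 2773 and 2714 in Oa1-/- and 1930.0, 2435 and 2679 in WT. The groups did not overlap, but the lowest Oa1-/- array and the highest WT array lay close together, and WT replicate 1 was the lowest of all. The log2 change was 0.28 (SE 0.12, unadjusted p = 0.0514 in limma), and it was 0.14 without WT replicate 1.

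Snap25 encodes a SNARE protein of the plasma membrane. Its signals were 3101, 3382 and 3008 in Oa1-/- and 2228, 3115 and 2916 in WT, a log2 change of 0.21 (SE 0.13). The groups overlapped, WT replicate 1 was again lowest, and without that array the change was 0.07. Vamp2, the vesicle SNARE, had 703, 799.6 and 805 in Oa1-/- and 599.5, 758 and 872 in WT, a log2 change of 0.06 (SE 0.15), with the WT arrays enclosing all 3 Oa1-/- arrays. Stx1a, its syntaxin partner, had a change of −0.05 with the smallest standard error of the 32 genes (0.10), and a 95% interval of −0.29 to 0.18. Vamp1 (−0.02), the synaptotagmins Syt4 (0.14) and Syt11 (0.00626) and the complexin Cplx2 (0.03) had overlapping groups as well. The probe sets read for Stx1a, Syt11 and Rab3a are of the kind marked _x_at, which can bind related transcripts.

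The vesicle membrane and tethering genes had the highest median change of the 5 classes, 0.25, with 8 of 10 genes higher in Oa1-/- and 2 lower. This rank depended on the setting: the median was 0.10 with array weights, where the active zone class had 0.18, and 0.24 without Oa1-/- replicate 1, where the active zone class also had 0.24. Rab3b, a small GTPase that tethers vesicles, had signals of 305, 299 and 366 in Oa1-/- and 259.6, 271 and 266 in WT. Syngr3, a synaptogyrin of the vesicle membrane, had 219, 268 and 223 in Oa1-/- and 160.5, 212 and 197 in WT. In both genes every Oa1-/- array lay above every WT array, with log2 changes of 0.26 (SE 0.14, unadjusted p = 0.0899 in limma) for Rab3b and 0.30 (SE 0.17, unadjusted p = 0.116 in limma) for Syngr3. Without WT replicate 1 these were 0.25 for Rab3b and 0.19 for Syngr3, and without Oa1-/- replicate 3 that of Rab3b was 0.18.

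Syn2, one of the synapsins that hold vesicles in reserve, was the member with the lowest change. Its signals were 103, 102 and 130.2 in Oa1-/- and 153, 132 and 149 in WT. All Oa1-/- arrays lay below all WT arrays, the nearest pair by a small margin, for a log2 change of −0.34 (SE 0.19, unadjusted p = 0.105 in limma). Its 2 other tested probe sets had changes of 0.13 and 0.11, the opposite sign.

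Syp encodes synaptophysin, the classic marker protein of the vesicle membrane. Its signals were 377, 395 and 405 in Oa1-/- and 251, 331 and 424 in WT, a log2 change of 0.25 (SE 0.18). Syn1 had 271, 390.0 and 312 in Oa1-/- and 174, 296 and 332 in WT, a change of 0.30 (SE 0.24). In both, the groups overlapped and WT replicate 1 was the lowest array. Without that array the change was 0.06 for Syp and 0.03 for Syn1, and without WT replicate 3 it was 0.42 for Syp and 0.47 for Syn1. Without Oa1-/- replicate 2 that of Syn1 was 0.16. Syngr1 (0.31), Rab3a (0.25) and Rab3c (0.25) were likewise lowest on WT replicate 1, and without it their changes were 0.00193, 0.08 and 0.06. Without WT replicate 3 that of Rab3a was 0.40, and Syngr1 had 0.47 and Rab3c 0.38 without WT replicate 2. The transporter-like vesicle glycoproteins Sv2b (0.02) and Sv2a (−0.06) were also lowest on that array.

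**Figure D2:**
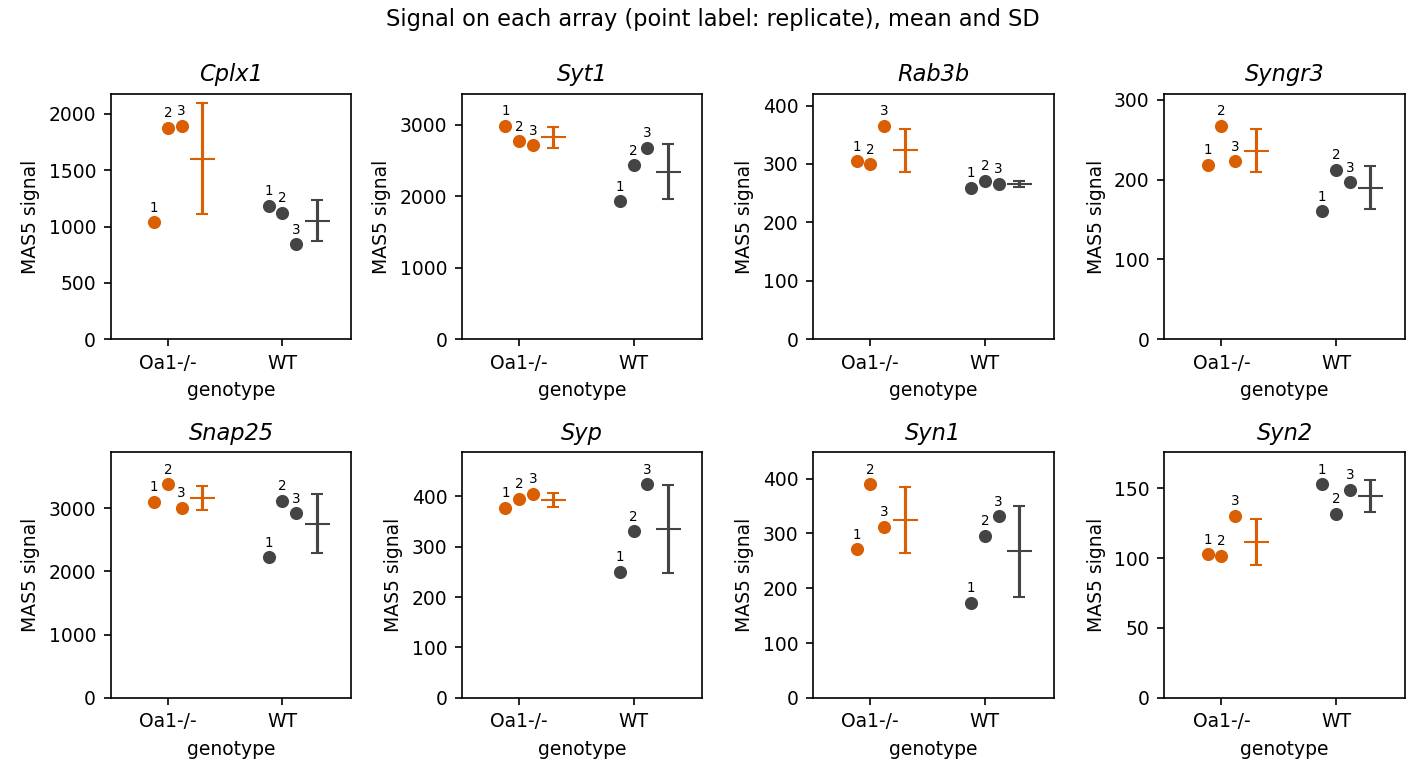
MAS5 signal (vertical axes, from 0, each gene on its own scale) of 8 release genes on the 3 Oa1-/- arrays (left, orange) and the 3 WT arrays (right, grey), with replicate numbers, means and SD bars. Every Oa1-/- point lies above every WT point for Syt1, Rab3b and Syngr3 and below for Syn2. WT replicate 1 is lowest for Syt1, Snap25, Syp, Syn1, Syngr3 and, by a small margin, Rab3b.

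WT replicate 1 gave the lowest signal for 18 of the 32 genes (56.25%), where it was lowest for 23.1% of all genes tested. Among the vesicle membrane genes it was lowest for 9 of 10. Against the mean of WT replicates 2 and 3, the array was lower for 23 of the 32 genes, with a median difference of −0.38 on the log2 scale, against −0.02 over all genes. The widest gaps were those of Dlg2 (−0.96), Syngr1 (−0.91), Syn1 (−0.79), Rab3c (−0.58), Syt4 (−0.57) and Syp (−0.55). Without WT replicate 1 the median of the vesicle membrane class was 0.04 in place of 0.25, that of the SNARE class −0.04 in place of 0.06, and 16 of the 32 genes in place of 22 were higher in Oa1-/-. WT replicate 3 pulled the other way: without it, 25 genes were higher and the median of all 32 was 0.17. WT replicate 3 also had the highest 3′ to 5′ signal ratio of the 6 arrays on each of the 3 RNA controls: 0.888 for 18S RNA against 0.491 to 0.663 on the other arrays, 0.985 for Gapdh against 0.798 to 0.841, and 1.34 for beta actin against 1.19 to 1.30.

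Markers of other cells moved on WT replicate 1 too. The summed signal of 4 tested genes of an 8-gene blood list was 6863, 8818 and 10009 on the Oa1-/- arrays and 23186, 8994 and 3527 on the WT arrays, so that WT replicate 1 was the highest of all and WT replicate 3 the lowest. Hbb-y, an embryonic globin, made up most of that sum. Alas2, the only tested gene of the list that is not a globin, did not follow this order. Its signals were 387, 466 and 340 in Oa1-/- and 437, 595 and 580 in WT. All 4 genes had a lower mean log2 signal in Oa1-/-, with changes from −0.50 for Hbb-bh1 to −0.02 for Hbb-y. All 9 lens markers were lowest on WT replicate 1, with a summed signal of 126627 to 135471 in Oa1-/- and of 103264 to 140716 in WT. Photoreceptor precursor markers (8 of 9 tested, 7 higher in Oa1-/-) were lowest on that array for 7 of 8, with sums of 12876 to 14134 in Oa1-/- and 10857 to 16366 in WT. Eye muscle markers (12 tested, 10 higher) summed to 6583 to 15061 in Oa1-/- and 5215 to 14454 in WT, with WT replicate 1 again at the low end. Periocular mesenchyme markers ran the other way between genotypes, with 11 of 13 lower in Oa1-/- and sums of 87980 to 94320 in Oa1-/- and 83994 to 102349 in WT. WT replicate 1 had the lowest of these sums too, and by gene it was lowest for 6 of the 13 and highest for 6. Ganglion cell markers, of which 13 of 17 were tested, summed to between 50761 and 56232 in Oa1-/- and between 46845 and 49538 in WT, with 9 higher and 4 lower in Oa1-/-. WT replicate 1 was the lowest array for 8 of the 13. Of these markers, Stmn2 (0.31), Gap43 (0.27) and Sncg (0.36), which young neurons express as they extend axons, had an unadjusted p below 0.05 in limma (0.0102, 0.0283 and 0.0303) and adjusted p of 0.985. Amacrine and horizontal cell markers had 5 of 11 genes higher and 6 lower in Oa1-/-, with sums of 7204 to 7462 in Oa1-/- and 7286 to 8551 in WT, and 2 of them, Prox1 (−0.61) and Tfap2b (−0.22), lay lower at an unadjusted p below 0.05 in limma (0.0116 and 0.0256, adjusted p = 0.985). In other lists Gngt2 (0.64) and Pax6 (0.16) lay higher below that p in limma (0.0265 and 0.0477). Twist1 (−0.42), Osr1 (−0.76) and Alas2 (−0.42) lay lower (0.0265, 0.0213 and 0.0349). All had an adjusted p of 0.985, and 3.66% of all genes tested were below that unadjusted p. The part of these differences, and of the RNA control ratios, in the values of the synapse genes was not tested.

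**Figure D3:**
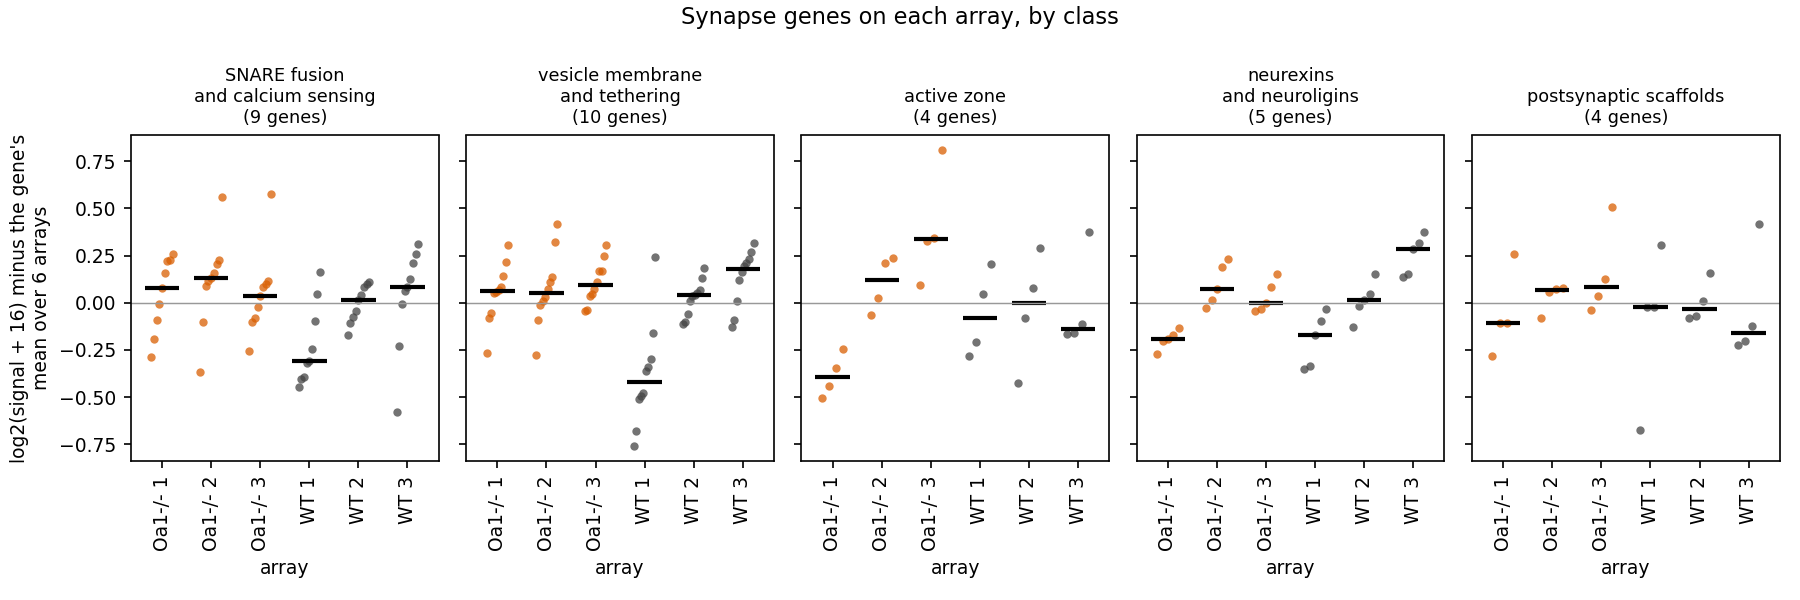
Each point is 1 gene on 1 array, as log2(signal + 16) minus that gene's mean over the 6 arrays (vertical axis), for the 3 Oa1-/- arrays (orange) and the 3 WT arrays (grey) in each class, with the class median as a bar. WT replicate 1 has the lowest median in the vesicle membrane class (−0.42) and in the SNARE class (−0.31), and Oa1-/- replicate 1 in the active zone class (−0.39).

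The active zone genes encode the large proteins that line up vesicles and calcium channels at the release site. Their median change was 0.08, with 3 genes higher in Oa1-/- and 1 lower, and the 3 Oa1-/- arrays stood far from one another in these genes. Bsn, encoding bassoon, had signals of 165, 234 and 414 in Oa1-/- and 267, 167 and 203 in WT. The Oa1-/- arrays spanned the whole range of the WT arrays, and the log2 change of 0.26 had the largest standard error of the 32 genes (0.31, unadjusted p = 0.429 in limma). It was 0.55 without Oa1-/- replicate 1 and −0.08 without Oa1-/- replicate 3. Pclo, its relative piccolo, had 441, 658 and 714 in Oa1-/- and 585, 534 and 504 in WT, a change of 0.13, with 0.34 without Oa1-/- replicate 1 (unadjusted p = 0.0276 in limma) and −0.00240 without Oa1-/- replicate 3. The vesicle primer Unc13a changed by 0.02 and the Rab3-binding Rims1 by −0.11. All 4 genes were lowest on Oa1-/- replicate 1, and the median of the class was 0.24 without that array and −0.11 without Oa1-/- replicate 3.

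Neurexins and neuroligins, the adhesion pair across the cleft, had 1 gene higher in Oa1-/- and 4 lower, all by small amounts, with a median of −0.02 and a range of −0.14 to 0.01. Nrxn3 had signals of 262, 342 and 298 in Oa1-/- and 262, 270.3 and 365 in WT, a log2 change of 0.01 (SE 0.17). Nrxn2 had 444, 606 and 502 in Oa1-/- and 398, 506 and 669 in WT, the change nearest to 0 of the 32 genes (−0.000342). For both, the highest and the lowest array were WT arrays.

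Nlgn2, the neuroligin of inhibitory synapses, had 1244, 1582 and 1593 in Oa1-/- and 1469, 1515 and 1651 in WT, a change of −0.08 (SE 0.12). Nlgn1, which is concentrated at excitatory synapses, had the most negative change of the class, −0.14 (95% interval −0.39 to 0.12), and Nlgn3 changed by −0.02. Of the 5 genes, 4 were highest on WT replicate 3. The class median was 0.14 without that array and −0.18 without WT replicate 1.

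The 4 postsynaptic scaffolds had a median change of 0.10, with 3 genes higher in Oa1-/- and 1 lower. Dlg4, encoding PSD-95, the main scaffold of excitatory synapses, had signals of 448, 579 and 787 in Oa1-/- and 541, 518 and 475 in WT. Oa1-/- replicates 2 and 3 lay above the WT arrays and Oa1-/- replicate 1 below them, for a log2 change of 0.20 (SE 0.19, unadjusted p = 0.322 in limma). It was 0.39 without Oa1-/- replicate 1 (unadjusted p = 0.0360 in limma) and −0.00407 without Oa1-/- replicate 3. Gphn, encoding gephyrin, the scaffold of inhibitory synapses, had 1032, 815 and 885 in Oa1-/- and 849, 820.2 and 791 in WT, a change of 0.14 (SE 0.11) that was 0.05 without Oa1-/- replicate 1.

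Homer1, which links glutamate receptors to calcium stores, had 755, 848 and 791 in Oa1-/- and 1008, 819 and 694 in WT, with the Oa1-/- arrays inside the WT range and a change of −0.06 (SE 0.14). Dlg2, encoding PSD-93, had 414, 473 and 489.7 in Oa1-/- and 275, 501 and 603 in WT, a change of 0.06 (SE 0.26). The WT arrays enclosed the Oa1-/- arrays, with WT replicate 1 the lowest. Leaving out WT replicate 1 gave a change of −0.26, and leaving out WT replicate 3 gave 0.29.

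**Figure D4:**
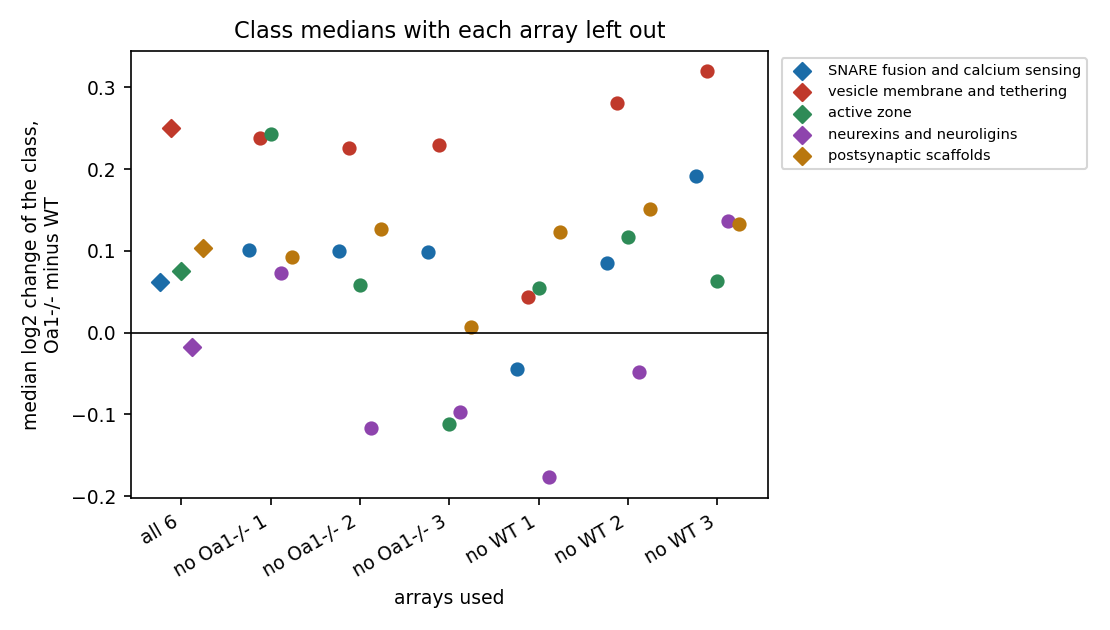
Median log2 change of each class (vertical axis, Oa1-/- minus WT) with all 6 arrays (diamonds) and with each array left out in turn (circles, horizontal axis). The vesicle membrane class stays above 0, between 0.04 without WT replicate 1 and 0.32 without WT replicate 3, and the postsynaptic scaffolds stay between 0.00676 and 0.15, while the medians of the 3 remaining classes fall on both sides of 0.

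Most genes are read by more than 1 probe set, and these did not always give the same sign. The 32 genes had 88 probe sets, of which 66 passed the filter on low signal, including the brightest of every gene. Of 23 genes with further tested probe sets, 13 had the same sign on all of them and 10 did not, and 21 of the 34 further probe sets shared the sign of the brightest. At an unadjusted p below 0.05 stood 3 of the 66 probe sets, against 4.11% of all probe sets tested.

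Beside that of Cplx1, these were a second probe set of Snap25 and of Nlgn2. The Snap25 probe set 1447763_at had signals of 116, 161 and 133 in Oa1-/- and 77.6, 84.3 and 79.2 in WT. The groups lay well apart, with a log2 change of 0.65 (SE 0.20, unadjusted p = 0.00993 in limma, adjusted p = 0.985), larger than the 0.21 of the brighter probe set. The Nlgn2 probe set 1460013_at had 31.2, 263 and 211 in Oa1-/- and 447, 468 and 328 in WT. There too the groups did not overlap, and the change of −1.56 (SE 0.59, unadjusted p = 0.0274 in limma, adjusted p = 0.985) stood beside −0.08 on the brighter one. Oa1-/- replicate 1 was far the lowest array on it. That array was also the lowest on Nrxn3 1439629_at, with 44.4, 292 and 144 in Oa1-/- and 217, 292 and 271 in WT (log2 change −0.93, SE 0.50), where the brightest Nrxn3 probe set had 0.01.

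Smaller disagreements of sign concerned Syt1 (−0.17 on 1438282_at), Cplx2 (−0.30 on 1421477_at and 0.36 on 1436383_at), Rims1 (0.11 on 1438305_at), Pclo (−0.10 on 1455373_at), Nlgn3 (0.17 on 1456384_at), Dlg4 (−0.14 on 1419581_at), Homer1 (0.03 on 1439662_at) and Syt11, whose 4 further probe sets ran from −0.14 to 0.15. For Bsn, a second probe set had 0.36, the sign of the first. Which transcripts these probe sets read was not analysed here.

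A wider list of 123 genes, called other synapse genes here, covered SNARE cofactors, vesicle, active zone, endocytosis, adhesion and scaffold genes. It was not restricted to neuronal genes and held broadly expressed relatives such as Snap23, Vamp3 and Stx6. Of the 123 genes, 99 were tested, with 49 higher in Oa1-/- and 50 lower. Their median was −0.000793, and 0 had an adjusted p below 0.05 in limma. At an unadjusted p below 0.05 there were 4 (2 in each direction), where 3.66% of all genes were. Higher in mean signal was Snap91, a clathrin adaptor of synaptic vesicle endocytosis, with 1833, 1932 and 1940 in Oa1-/- and 1491, 1696 and 1708 in WT (log2 change 0.22, unadjusted p = 0.0335 in limma). Napb, the neuronal beta-SNAP that helps take SNARE complexes apart, had 890.2, 715 and 808 in Oa1-/- and 535, 629 and 725 in WT (0.35, unadjusted p = 0.0347 in limma). The groups stood apart for Snap91 and overlapped for Napb.

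Lower in mean signal were Dnm1, the neuronal dynamin that pinches vesicles off, and Ppfia1, encoding a liprin and listed here among active zone genes. Dnm1 had 1084, 1435 and 1311 in Oa1-/- and 1700, 1528 and 1556 in WT (−0.33, unadjusted p = 0.0222 in limma). Ppfia1 had 489, 581 and 532 in Oa1-/- and 694, 618 and 691 in WT (−0.32, unadjusted p = 0.0226 in limma). All Oa1-/- arrays lay below all WT arrays for both genes, and all 4 genes had an adjusted p of 0.985. Without WT replicate 1 none of the 4 stayed below an unadjusted p of 0.05 in limma, with changes of 0.16 for Snap91, 0.24 for Napb, −0.28 for Dnm1 and −0.29 for Ppfia1. Without Oa1-/- replicate 1 that of Dnm1 was −0.21, and 1 of the 4, Snap91, stayed below that p. Medians of the sub-lists lay between −0.04 for other scaffold genes and 0.03 for other SNARE genes, with 12 of 20 SNARE, 9 of 18 vesicle, 10 of 17 active zone, 7 of 12 endocytosis, 7 of 18 adhesion and 4 of 14 scaffold genes higher in Oa1-/-. WT replicate 1 was the lowest array for 28 of these 99 genes.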

How the data were processed

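The authors' deposited values were MAS5 intensities (per the submitters' processing notes, version not given in the sources used here) for 45101 probe sets on 6 arrays, 1 per litter pool, grouped by genotype from the titles. Genes were named through the platform annotation, which gave a single symbol for 34958 probe sets. Symbols were matched by Entrez identifier to RefSeq for 34754 of these, with 0 changed. One further probe set shared Vamp1 with another gene and was not used.

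Computed here were log2(signal + 16) values without further normalization, on the 27029 non-control probe sets with a mean above the 40th percentile (signal 66.0). The highest of 27 bacterial control probe sets reached 22.1 to 39.3. Oa1-/- minus WT was fitted with limma 3.58.1 in R 4.3.3 (lmFit, eBayes with an intensity trend, two-sided), Benjamini-Hochberg over all probe sets kept, and the scripts were tested on simulated data. Adding 16 understates changes of dim probe sets. No exact test of single genes was run, since 3 arrays against 3 cannot give a p below 0.1. The number of arrays limits the precision. Detection calls were not used here.

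The members, classes and other gene lists were chosen with earlier results of these data known. Named in full were genes with an unadjusted p below 0.05 or separated groups, the largest and smallest change, canonical members of each class, other probe sets of opposite sign, and up to 4 other synapse genes per direction. Beside these, Pclo, Nrxn2 and Dlg2 have their signals on every array, chosen after their values were seen. The alternatives covered the pseudocount, filter, normalization, trend, array weights, probe set choice, replicate block and each array left out.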

Additional observations from a re-analysis of the deposited data

Results flagged for a closer look

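The 3′ and 5′ control probe sets of 18S ribosomal RNA, which enter no comparison, were brighter on every Oa1-/- array than on every WT array. The 3′ probe set had 6348, 2618 and 2608 in Oa1-/- and 1476, 1988 and 1988 in WT, with a mean of 3858 in Oa1-/-. The 5′ probe set had 11826, 5201 and 4828 in Oa1-/- and 2227, 4049 and 2237 in WT, with a mean of 7285 in Oa1-/-. Oa1-/- replicate 1 was the highest array on both. On the middle probe set the groups overlapped, with 6576, 2826 and 1968 in Oa1-/- and 1371, 2397 and 1731 in WT. The part of this difference in the values of the synapse genes was not tested.

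The Dlg2 probe set 1421200_at lay below the filter on low signal and was not tested. Its signals were 56.9, 53.2 and 45.3 in Oa1-/-, with a mean of 51.8, and 27.2, 22.7 and 26.2 in WT. The groups lay apart, but the WT signals fall in the range of the highest bacterial controls.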

How the results depend on the processing

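Under 18 alternatives, 0 of the 32 genes reached an adjusted p below 0.05, and 13 genes kept their sign in all alternatives that gave them a value (11 higher in Oa1-/-, and Nlgn1 and Syn2 lower), while 19 changed sign at least once. Over the whole array, array weights gave 2 called probe sets in place of 0. The number of the 32 genes with an unadjusted p below 0.05 was 1 with the settings of the report. It was 2 with a pseudocount of 64 (3.67% of all genes) and 2 with quantile normalization (3.76% of all genes). Array weights gave 3 (10.8% of all genes), and the mean of each gene's probe sets gave 3 (4.87% of all genes). Probe sets ending in _at only gave 0 (3.58% of all genes). Leaving out Oa1-/- replicate 1 and WT replicate 3 together gave 4 (4.79% of all genes). Single arrays left out gave 0 to 3 (2.51% to 3.92% of all genes). A stricter filter at the 70th percentile kept 20 of the genes, of which 14 were higher in Oa1-/-. Without Oa1-/- replicate 1 and WT replicate 3 together the median of the 32 genes was 0.26 and that of the neurexins and neuroligins 0.23. With single arrays left out that of the scaffolds ran from 0.00676 to 0.15. The 4 other synapse genes at an unadjusted p below 0.05 became 10 of 99 with array weights, again beside 10.8% of all genes. With single arrays left out they ran from 0 without WT replicate 1 (3.92% of all genes) to 7 without WT replicate 3 (3.81% of all genes). Centring each array on its median moved the median of all genes to 0.04, with 61.1% of genes positive in place of 50.8%. Same-numbered arrays of the genotypes had residual correlations of −0.29, 0.16 and −0.23. With 3 arrays per group these cannot decide whether the numbers pair the samples. A fit with the replicate block left 0 of the 32 genes at an unadjusted p below 0.05, against 2.64% of all genes. The causes were not tested.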
